A study of Mus musculus with 23 samples.

Results

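Cplane1, the ciliogenesis and planar polarity effector 1 gene, is 1 of 18193 genes with a probe set of their own on the array. It was represented by 7 of the 45037 probe sets other than Affymetrix controls, which were all those that the platform annotation pairs with this gene alone, and it shared none with another gene. The gene was chosen by its signal in treated against vehicle livers, which was far higher in the treated ones, so its differences between treated and vehicle animals are given here as a description, with standard errors and without a test. Each of the 23 arrays held liver RNA of 1 male mouse of the FVB/N-SULT1A1/2 line, hemizygous for the human SULT1A1 and SULT1A2 transgenes, with an age of 5 weeks on the labels. Treated animals received 1-methoxy-3-indolylmethyl alcohol (1-MIM-OH), an alcohol formed from a glucosinolate of cabbage vegetables, by mouth at 26 mg/kg 3 times per week, and vehicle animals received glyceryl trioctanoate alone. Animals had 10 treatments over 21 d or 40 treatments over 90 d, and liver was taken 24 h after the last one. The groups were vehicle 21 d (n = 6), treated 21 d (n = 5, after the submitters had left out 1 array for hybridisation faults), vehicle 90 d (n = 6) and treated 90 d (n = 6). All 4 groups carry the transgenes, and the labels name no group without them.

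CPLANE1 is the largest protein of the CPLANE complex, which it forms with the proteins of Wdpcp, Intu, Fuz and Cplane2. The complex acts at the base of the primary cilium, where it recruits intraflagellar transport particles, and variants of the human gene cause Joubert and orofaciodigital syndromes. In liver, primary cilia stand on cholangiocytes, the cells lining the bile ducts, while hepatocytes, the main cell type of the tissue, are known to lack them. Cdkn1a, which encodes the cell cycle inhibitor p21, and Phlda3, which encodes a repressor of Akt signalling, are textbook targets of the transcription factor p53 in the response to DNA damage, and the relation of Cplane1 to both was examined.

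The start region of Cplane1 was read first because Cdkn1a, whose signal was also higher in treated than in vehicle livers, is known for its p53 sites. The RefSeq window of Cplane1 (GRCm38.p6, chr15:8168856-8169155, plus strand) runs from 250 bases before the annotated start to 50 bases after it. The second window is that of an alternative start of Cdkn1a (chr17:29090729-29091028, plus strand) and is shown for contrast. Capitals mark GC boxes (GGGCGG or, on the other strand, CCGCCC) in Cplane1 and matches to the p53 half-site consensus in Cdkn1a.
Cplane1: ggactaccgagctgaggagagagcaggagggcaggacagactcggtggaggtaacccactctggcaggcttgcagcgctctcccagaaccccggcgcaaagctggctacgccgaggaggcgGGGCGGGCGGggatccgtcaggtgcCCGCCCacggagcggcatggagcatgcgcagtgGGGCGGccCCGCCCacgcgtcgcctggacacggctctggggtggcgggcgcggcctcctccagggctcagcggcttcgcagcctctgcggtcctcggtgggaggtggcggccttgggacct
Cdkn1a: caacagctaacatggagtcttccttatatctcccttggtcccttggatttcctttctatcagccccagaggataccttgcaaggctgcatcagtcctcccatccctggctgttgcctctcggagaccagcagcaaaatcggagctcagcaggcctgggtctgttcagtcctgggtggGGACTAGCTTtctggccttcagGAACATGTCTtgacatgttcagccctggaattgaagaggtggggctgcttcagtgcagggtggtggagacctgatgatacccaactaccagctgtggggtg
The Cplane1 window held 5 GC boxes, of which 1 pair overlaps, and 72.7% of its bases were G or C. A GC box occurred in 35.7% of all 32851 RefSeq windows of this length, and 2.71% held as many. The p53 half-site consensus, searched by its name as the pattern that reads the same on both strands, had 0 matches in the Cplane1 window. It matched in 8.36% of all windows, had 2 matches in the Cdkn1a window shown, and had 0 in the Phlda3 window (chr1:135765835-135766134, plus strand) and in the window of the other Cdkn1a start (chr17:29093519-29093818, plus strand). The closest full site, a pair of adjoining half-sites, had 1 mismatch in the Cdkn1a window shown, which 0.0883% of the windows reached. It had 5 mismatches in Cplane1, in Phlda3 and in the window of the other Cdkn1a start, which 76.6% of the windows reached. The absence of a match says only that these letters are not in this window.

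The values are log2 signals after robust multi-array averaging (RMA), which puts all arrays on one distribution, so a difference of 1 is a 2-fold difference in signal. Medians of the arrays ran from 5.53 to 5.61, and arrays of one group correlated at 0.98 to 1.00 over all probe sets. The difference between the 3′ and the 5′ probe set for Gapdh, a sign of RNA quality, was 0.33 ± 0.13 (SD, n = 6) in vehicle 21 d livers and 1.00 ± 0.51 (SD, n = 5) in treated 21 d livers, where replicates 1, 3, 4 and 5 were above 0.9. It was 0.50 ± 0.15 and 0.53 ± 0.40 (SD, n = 6 each) in vehicle and treated 90 d livers, with replicate 6 alone above 0.9. For beta-actin the difference was above 0.9 on every array, with means of 1.8 in vehicle and 2.3 in treated 21 d livers and 1.9 in both 90 d groups. The part of RNA quality in the results below was examined with the Gapdh difference as a covariate, and values that moved are given. The summed signal of 6 hepatocyte markers was high in every array (148820 to 162580 on the linear scale). None of 7 cholangiocyte, 7 Kupffer cell, 7 stellate cell, 6 sinusoidal endothelial and 7 lymphocyte markers passed the test at either time. Of all genes, 1.17% passed at 21 d and 0.748% at 90 d (limma, adjusted p under 0.05). An unadjusted p under 0.05 was found for 0 of the 7 cholangiocyte markers at 21 d and 3 at 90 d, beside 16.6% and 12.1% of all genes. These 3 were Krt7 and Bicc1, higher by 0.38 each in treated 90 d livers, and Sox9, with a difference of -0.33. The 7 cholangiocyte markers summed to 354 to 532 in treated 21 d against 373 to 474 in vehicle 21 d livers, and to 429 to 559 in treated 90 d against 398 to 521 in vehicle 90 d livers. All 7 Kupffer cell markers had lower means in treated than in vehicle livers at 21 d (differences of -0.69 to -0.06) and higher means at 90 d (0.13 to 1.11). Lower means at 21 d were also found in all 6 sinusoidal endothelial (-0.33 to -0.04) and all 7 lymphocyte markers (-0.35 to -0.004). Cholangiocyte (-0.25 to 0.06) and stellate cell markers (-0.10 to 0.34) went both ways at 21 d. The part of these cells in the results was not tested. In whole liver, fewer cells of a type and less RNA per cell cannot be told apart.

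In 3 of its 7 probe sets Cplane1 gave higher signals in every treated liver than in any vehicle liver of the same time, and the other 4 did not. The probe set with the highest mean signal, 1452951_at, read 6.01, 6.57, 6.51, 6.06, 6.28 and 6.06 in the vehicle 21 d livers and 7.78, 7.68, 8.54, 7.95 and 7.37 in the treated 21 d livers. At 90 d it read 6.61, 6.94, 6.61, 6.48, 6.35 and 6.08 in the vehicle livers and 10.11, 9.84, 8.61, 10.11, 10.03 and 8.63 in the treated livers. At neither time did the groups overlap, and treated 90 d replicates 3 and 6 lay more than a full log2 unit below the other 4 treated livers of that time. The treated livers were higher by 1.62 ± 0.26 (SE) at 21 d, a 3.06-fold difference, and by 3.04 ± 0.25 (SE) at 90 d, an 8.24-fold difference.

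Probe set 1443422_at had the widest difference at 90 d, and at 21 d its difference was close to that of 1452951_at. Its signals were 5.56, 5.69, 5.94, 5.89, 5.82 and 5.30 in vehicle 21 d livers and 7.55, 7.32, 7.41, 7.24 and 6.95 in treated 21 d livers. At 90 d they were 5.62, 6.26, 5.97, 5.89, 5.81 and 5.92 with vehicle and 10.38, 9.81, 8.10, 9.62, 9.61 and 8.16 with treatment. The groups did not overlap, and replicates 3 and 6 were again the lowest of the treated 90 d livers. The difference was 1.59 ± 0.28 (SE) at 21 d (3.02-fold) and 3.37 ± 0.27 (SE) at 90 d (10.3-fold). With the Gapdh difference as a covariate, the 21 d value was 1.95.

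The third, 1444220_at, was dim in vehicle livers, below the array's median on all 12 of them. Its signals were 3.83, 3.81, 3.85, 3.90, 3.50 and 3.80 in vehicle 21 d livers and 4.34, 4.17, 4.32, 4.20 and 4.52 in treated 21 d livers. At 90 d they were 3.78, 3.90, 3.66, 4.18, 3.83 and 3.85 with vehicle and 6.70, 6.16, 4.88, 6.13, 5.96 and 4.41 with treatment. Treated and vehicle groups of one time were apart by a narrow margin, and the signal passed the array's median only in the 4 treated 90 d livers other than replicates 3 and 6. The difference was 0.53 ± 0.26 (SE) at 21 d (1.44-fold) and 1.84 ± 0.25 (SE) at 90 d (3.58-fold), and the 21 d value was 0.83 with the Gapdh covariate, over 1.5 times as large. The fit shares one spread over the 4 groups, while the SD was 0.87 in treated 90 d livers and at most 0.17 in the other groups. The SE is thus too wide at 21 d and too narrow at 90 d. The same holds for 1443422_at, with an SD of 0.93 in treated 90 d livers and at most 0.24 elsewhere. To a lesser degree it holds for 1452951_at, with an SD of 0.73 in treated 90 d livers and at most 0.43 elsewhere.

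Thus 3 of the 7 probe sets had treated and vehicle groups that did not overlap, all with the treated group higher, at both times. Over all 45037 probe sets, 1.02% at 21 d and 0.648% at 90 d had groups that did not overlap in this direction. As this contrast chose the gene, nothing is read from the count.

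Probe set 1458493_a_at was designed from the same source sequence as 1444220_at, while the other 5 have a source sequence of their own. In Affymetrix naming the letter a marks probes that match several transcripts of one gene. It read 5.74, 5.72, 5.88, 5.80, 5.80 and 5.75 in vehicle 21 d livers and 5.51, 5.88, 5.69, 5.76 and 5.76 in treated 21 d livers, with overlapping groups and a difference of -0.06 ± 0.10 (SE). At 90 d the vehicle livers read 5.66, 5.80, 5.57, 5.85, 5.78 and 5.87 and the treated livers 6.41, 5.99, 6.07, 5.57, 6.26 and 5.86. There the treated mean was 0.27 ± 0.10 (SE) higher, a 1.21-fold difference, while the groups still overlapped and replicate 4, among the highest livers for 1452951_at, had the lowest signal. The SD was 0.30 in treated 90 d livers and at most 0.14 in the other groups, so the SE at 90 d is too narrow here as well. The 21 d difference turned to 0.13 with the Gapdh covariate. It was 0.10 without the arrays above the Gapdh limit, which leaves replicate 2 as the only treated 21 d liver.

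In the other 3, treated and vehicle means were at most 0.08 apart at either time, and the groups overlapped. Signals of 1437439_at lay between 5.87 and 6.44 on all arrays, and the treated livers differed by -0.05 ± 0.09 (SE) at 21 d and 0.02 ± 0.09 (SE) at 90 d. Those of 1441571_at lay between 4.26 and 4.65, with differences of 0.05 ± 0.07 and -0.03 ± 0.07 (SE). Those of 1443691_at lay between 3.67 and 4.30, with differences of -0.08 ± 0.09 and 0.05 ± 0.09 (SE). The last 2 were below the array's median on every array, so they give no firm reading of a transcript, whereas 1437439_at was above it on every array. Where the probes of each set lie along the Cplane1 transcripts was not analysed here.

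**Figure D1:**
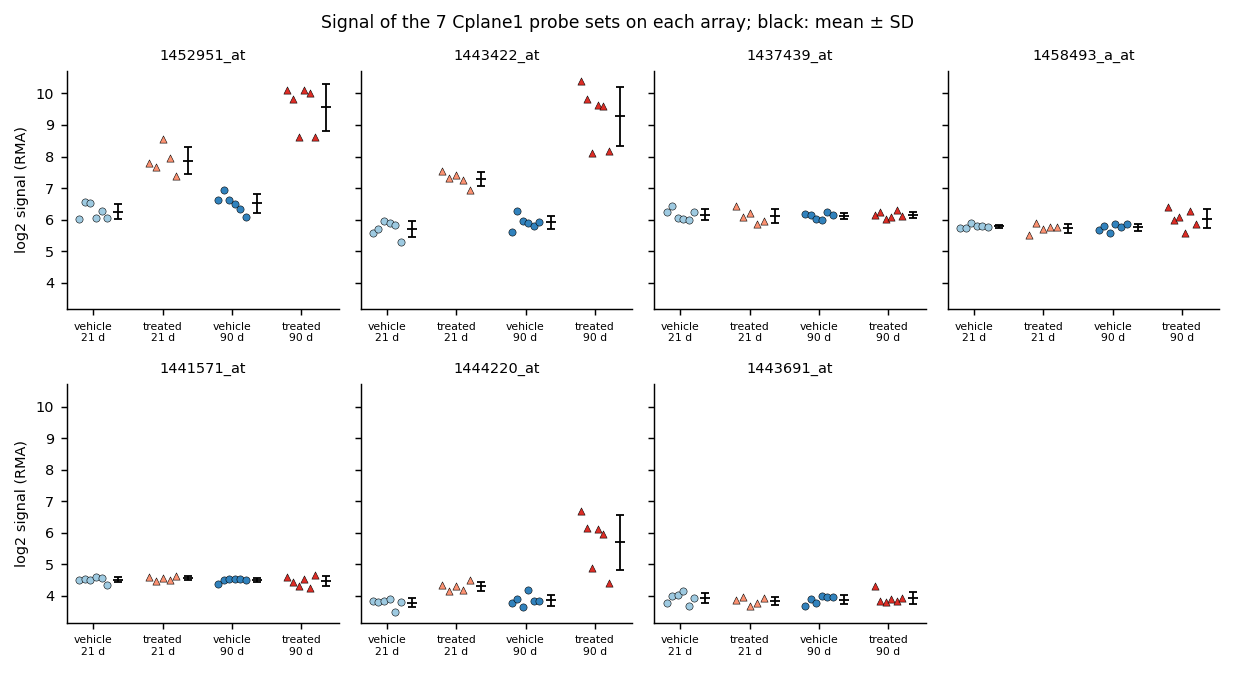
Log2 signal of each Cplane1 probe set (panels) on each of the 23 arrays (circles vehicle, triangles treated), with the mean and SD of each group in black. Treated livers stand above vehicle livers in 1452951_at, 1443422_at and 1444220_at, and 2 of the 6 treated 90 d livers stand below the other 4 in all 3 panels.

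**Figure D2:**
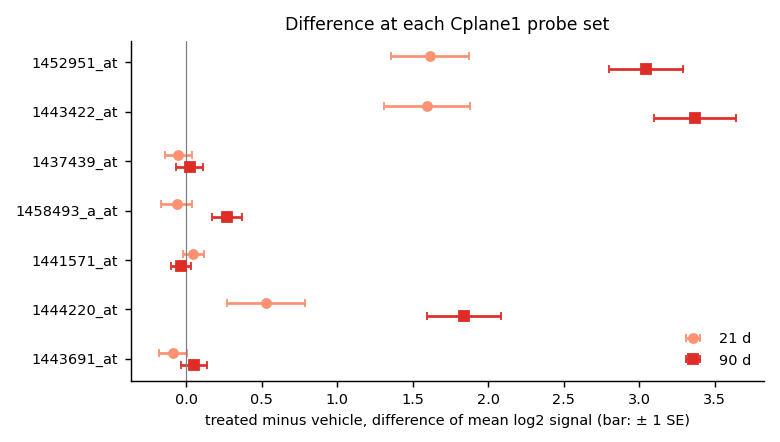
Treated minus vehicle difference of mean log2 signal for each probe set at 21 d and 90 d, with bars of 1 SE from the fit over all arrays. In the 3 probe sets with non-overlapping groups the 90 d difference is 3.04, 3.37 and 1.84, against 1.62, 1.59 and 0.53 at 21 d.

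The order of the group means was the same in these 3 probe sets, from vehicle 21 d through vehicle 90 d and treated 21 d to treated 90 d. The vehicle groups overlapped in each. In 1452951_at and 1443422_at every treated 90 d liver was above every treated 21 d liver, by a small margin in 1452951_at (8.61 against 8.54). In 1444220_at both neighbouring pairs above the lowest group overlapped, since treated 21 d replicate 2 (4.17) lay below vehicle 90 d replicate 4 (4.18) and treated 90 d replicate 6 (4.41) lay below treated 21 d replicate 5 (4.52). The 90 d difference exceeded the 21 d difference by 1.43 ± 0.36 (SE) in 1452951_at, by 1.77 ± 0.39 in 1443422_at and by 1.31 ± 0.36 in 1444220_at. It did so by 0.33 ± 0.14 in 1458493_a_at. In the other 3 the differences at the 2 times were at most 0.14 apart. Of these, 1441571_at had the lower difference at 90 d (by -0.08 ± 0.09, SE).

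Whether Cplane1 differed with time in animals that never received the compound was tested, since the choice of the gene did not use that contrast. None of the 7 probe sets passed at an adjusted p of 0.05 in vehicle 90 d against vehicle 21 d livers, by limma with Benjamini-Hochberg adjustment over all 45037 probe sets, and 0 had an unadjusted p under 0.05. The background of this comparison was 0.00666% of probe sets by the adjusted p and 5.96% by the unadjusted p. The difference was 0.26 ± 0.25 (SE) in 1452951_at (adjusted p = 0.946), 0.21 ± 0.27 in 1443422_at (adjusted p = 0.961) and 0.09 ± 0.25 in 1444220_at (adjusted p = 0.987). In these probe sets the SD of a vehicle group was at most 0.29, 0.24 and 0.17, against 0.73, 0.93 and 0.87 in treated 90 d livers. The spread shared over the groups thus makes these SE too wide and the p-values too high. With the vehicle groups alone in the fit, 0 of the 7 passed by the adjusted p.

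Within the treated groups 1 of the 6 other probe sets followed 1452951_at from liver to liver by Pearson's r, and none did by Spearman's rho. After centring on the mean of each time, 1443422_at followed 1452951_at over the 11 treated livers with Pearson's r = 0.88 (exact permutation p = 0.00725, adjusted p = 0.0435 over the 6 probe sets compared). Its Spearman's rho was 0.79 (exact permutation p = 0.0130, adjusted p = 0.0779), which missed the threshold. For 1444220_at, r was 0.81 and rho 0.67 (adjusted p = 0.122 and 0.124, exact permutation tests). The other 4 had r between -0.02 and 0.34, with adjusted p of 0.454 or more by exact permutation. Without treated 90 d replicates 3 and 6, the livers farthest from the median of 1452951_at after centring, r was 0.36 for 1443422_at (exact permutation p = 0.251) and -0.07 for 1444220_at, so the relation rests on those 2 livers. Over the 12 vehicle livers r was 0.46 for 1443422_at (exact permutation p = 0.153) and between -0.19 and 0.05 for the rest, with adjusted p of 0.890 for each.

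Cplane1 was then set against Cdkn1a and Phlda3, a pair named with earlier results of these data known. Cdkn1a (1424638_at) read 8.98, 10.26, 9.59, 9.35 and 8.95 in treated 21 d livers and 10.89, 10.69, 9.01, 11.79, 10.67 and 9.15 in treated 90 d livers, against 6.41 to 7.27 in all vehicle livers. Phlda3 (1449002_at) read 7.81, 8.25, 7.88, 7.78 and 7.36 in treated 21 d livers and 9.20, 8.71, 7.72, 8.99, 8.59 and 7.69 in treated 90 d livers, against 6.53 to 6.71 in all vehicle livers. Treated 90 d replicates 3 and 6 were the lowest of their group in both genes, as they were in Cplane1, and their values fell among those of the treated 21 d livers. Treated 21 d replicate 2 was the highest of its group in both genes while its Cplane1 signal, 7.68, was next to the lowest.

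Within the treated groups Cplane1 followed both genes. As the pair was named with earlier results of these data known, the adjustment over 2 genes does not allow for that choice. After centring on each time, r was 0.81 with Cdkn1a (exact permutation p = 0.0176, adjusted p = 0.0176 over the 2 genes) and rho 0.69 (exact permutation p = 0.0250). With Phlda3, r was 0.84 (exact permutation p = 0.0139, adjusted p = 0.0176) and rho 0.72 (exact permutation p = 0.0216, adjusted p = 0.0250). Within the 6 treated 90 d livers alone, r was 0.94 with Cdkn1a (exact permutation p = 0.00833) and 0.96 with Phlda3 (exact permutation p = 0.0167), while no r is given for the 5 treated 21 d livers, fewer than the 6 required here, so it is not shown that the relation holds at 21 d. Leaving out the 2 livers farthest from the median of the other gene (treated 90 d replicates 1 and 4 for both) gave r = 0.76 with Cdkn1a (exact permutation p = 0.117) and 0.79 with Phlda3 (exact permutation p = 0.0979), neither past the threshold. That median was taken over both times before centring, so the higher level of the 90 d group entered the choice of these livers. Leaving out treated 90 d replicates 3 and 6, a choice made after seeing the values, gave 0.27 (exact permutation p = 0.544) and 0.36 (exact permutation p = 0.419), so the relation rests on a few livers of the 90 d group. Over the 12 vehicle livers r was 0.27 with Cdkn1a (exact permutation p = 0.403) and 0.18 with Phlda3 (exact permutation p = 0.586). The Gapdh difference was 0.21 in treated 90 d replicate 3 and 1.24 in replicate 6, the second lowest and the highest value of their group.

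Of the other probe sets, 1443422_at followed Cdkn1a with r = 0.78 (exact permutation p = 0.0357) and Phlda3 with r = 0.92 (exact permutation p = 0.00272), and 1444220_at gave 0.74 (exact permutation p = 0.0638) and 0.83 (exact permutation p = 0.0225). These p-values are not adjusted over probe sets. The remaining 4 had r between -0.02 and 0.42, with a lowest exact permutation p of 0.304.

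**Figure D3:**
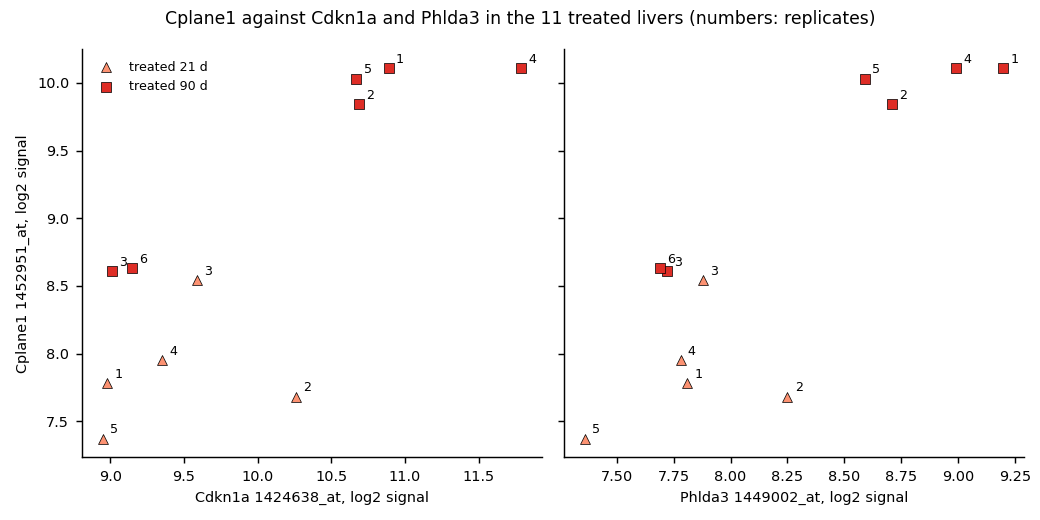
Log2 signal of Cplane1 (1452951_at) against Cdkn1a (left) and Phlda3 (right) in the 5 treated 21 d livers (triangles) and 6 treated 90 d livers (squares), numbered by replicate. Treated 90 d replicates 3 and 6 lie among the treated 21 d livers on both horizontal axes, apart from the other 4 livers of their group.

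The genes whose pattern over all 23 arrays was most like that of Cplane1 were ranked by Pearson's r with 1452951_at, as a description without a test, since the arrays fall into treatment groups that set much of each r. Over 18192 other genes the median r was 0.03. Phlda3 had the highest value at 0.96, before Ccng1, which encodes cyclin G1 (0.95), Tmem43, which encodes a nuclear membrane protein (0.94), and Cdkn1a (0.94). Next came Mbl2, which encodes a mannose-binding lectin secreted by hepatocytes (0.93), Aen, a nuclease gene (0.92), Eif2d, a translation factor gene (0.92), and Zmat3, which encodes an RNA-binding zinc finger protein (0.91). The lowest values belonged to Wwox, a WW-domain oxidoreductase gene (-0.90), Steap2, a metalloreductase gene (-0.89), Tcf24, which encodes a helix-loop-helix factor (-0.88), and Chchd6, which encodes a protein of the mitochondrial inner membrane (-0.86). After centring on the 4 group means the median r was 0.02 and the highest were Phlda3 (0.77), the receptor gene Notch1 (0.77), Mdm2, which encodes the ubiquitin ligase of p53 (0.77), Zeb1, a transcription factor gene (0.77), and the semaphorin gene Sema3f (0.76). Cdkn1a ranked 13th there, with r = 0.73. Zeb1 had nearly equal means in the 4 groups (8.43 to 8.48) and an r of 0.11 before centring.

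The partners of the CPLANE1 protein did not pass the test at either time, where 1.17% of all genes passed at 21 d and 0.748% at 90 d. In the 4 genes Wdpcp, Intu, Fuz and Cplane2 the treated minus vehicle difference ran from -0.41 to 0.05 at 21 d and from -0.31 to 0.02 at 90 d. An unadjusted p under 0.05 (limma) was found for 1 of the 4 at 21 d (Wdpcp) and 2 at 90 d (Wdpcp and Intu), each lower in treated livers. The shares of all genes were 16.6% and 12.1%. The farthest from 0 was Wdpcp, with -0.41 ± 0.12 (SE) at 21 d (limma, adjusted p = 0.0939) and -0.31 ± 0.12 at 90 d (adjusted p = 0.330). Wdpcp was dim, above the array's median on only 3 of the 23 arrays, and Cplane2 was above it on 7. Fuz and Intu were above it on all 23. Intu, known to act with Fuz at the ciliary base, differed by -0.04 ± 0.13 and -0.28 ± 0.12 (adjusted p = 0.934 and 0.437).

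Of 91 measured genes of cilium assembly, cilium-based signalling and planar cell polarity, in 8 lists of 100 named genes, 1 rose, 1 fell and 89 did not pass at 21 d, and 0 passed at 90 d (limma, adjusted p under 0.05). With 1 probe set per gene, 1.17% of all 18193 genes passed at 21 d (0.577% higher and 0.594% lower) and 0.748% at 90 d. An unadjusted p under 0.05 was found for 15 of the 91 at 21 d and 14 at 90 d, beside 16.6% and 12.1% of all genes. The median difference of the 91 was -0.05 at 21 d and 0.00 at 90 d, beside -0.02 and 0.02 over all genes. Ift27, which encodes a small GTPase of the intraflagellar transport B particle, rose by 0.32 ± 0.07 (SE, adjusted p = 0.0291). Tmem216, which encodes a membrane protein of the ciliary transition zone, fell by 0.52 ± 0.12 (SE, adjusted p = 0.0360) on the log2 scale. Neither call held with the Gapdh difference as a covariate, where Tmem216 gave -0.18 (adjusted p = 0.654) and Ift27 0.26 (adjusted p = 0.318). Leaving out the arrays above the Gapdh limit keeps only 1 treated 21 d liver, replicate 2, so that setting has no spread of its own in that group. There Tmem216 gave -0.16 and Ift27 0.28. Both genes were read by probe sets whose names mark probes shared with other sequences (1453567_s_at and 1434299_x_at).

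In the remaining lists no member passed at either time. The member farthest from 0 among 7 intraflagellar transport A genes was Ift140 at 21 d (0.34, adjusted p = 0.140), and among 8 genes of the BBSome, a coat complex that carries membrane proteins in cilia, it was Bbs9 at 21 d (-0.39, adjusted p = 0.0818) and Bbip1 at 90 d (-0.35, adjusted p = 0.131). Among 10 Hedgehog signalling genes, Ihh, which encodes the ligand Indian hedgehog, differed by 0.21 at 21 d (adjusted p = 0.367) and 0.41 at 90 d (adjusted p = 0.0910). Among 13 planar cell polarity genes the farthest were Dvl1, a dishevelled gene (0.38 at 21 d, adjusted p = 0.0961), and Celsr1, a cadherin gene (-0.40 at 90 d, adjusted p = 0.264). Among 10 ciliogenesis regulators and motors it was Kifap3, a kinesin subunit gene (-0.30 at 21 d and -0.32 at 90 d, adjusted p = 0.151 and 0.194). In the transition zone list at 90 d, Tmem107 (-0.24, adjusted p = 0.411) and Tmem237 (0.24, adjusted p = 0.498) were equally far from 0 in opposite directions. Of the 91 genes, 13 were at or below the array's median on every array, so for these a difference could have been missed at this signal.

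**Figure D4:**
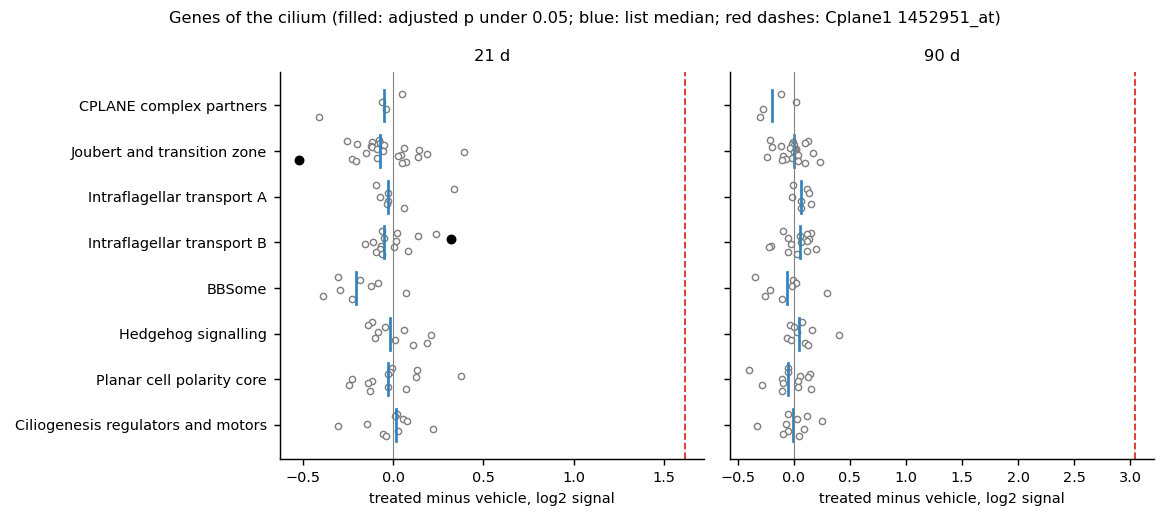
Treated minus vehicle difference in log2 signal of each measured gene in the 8 lists at 21 d (left) and 90 d (right), with filled points for adjusted p under 0.05, a blue bar at each list's median and a dashed red line at Cplane1 1452951_at. Every list gene lies between -0.52 and 0.41, short of the Cplane1 lines at 1.62 and 3.04.

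None of the measured genes next to Cplane1 on the chromosome passed the test at either time. In the RefSeq gene order the measured neighbours are Gdnf, which encodes a neurotrophic factor, Wdr70, a WD-repeat gene, and Nup155, a nuclear pore gene, on one side. On the other side they are Nipbl, which encodes the cohesin loader, Gm49249, and Slc1a3, a glutamate transporter gene. All 6 had a limma adjusted p of 0.622 or more at 21 d and 0.764 or more at 90 d, while 1.17% and 0.748% of all genes passed. The nearest on each side were Nup155, which differed by 0.06 ± 0.10 (SE) at 21 d and -0.01 ± 0.10 at 90 d, and Nipbl, with 0.03 ± 0.09 and 0.01 ± 0.09. Over all 18 probe sets of these genes the differences ran from -0.24 to 0.23 at 21 d and from -0.21 to 0.21 at 90 d. None of the 18 passed, with a lowest adjusted p of 0.0866 at 21 d and 0.404 at 90 d, beside 0.957% and 0.502% of all 45037 probe sets. Gdnf and Gm49249 were below the array's median on every array. RefSeq also lists 4 entries that overlap Cplane1 (the pseudogene Gm46494, the small nuclear RNA gene Gm24144, and the long non-coding RNA genes Gm41265 and Gm52208), none of which has a probe set of its own here.

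**Figure D5:**
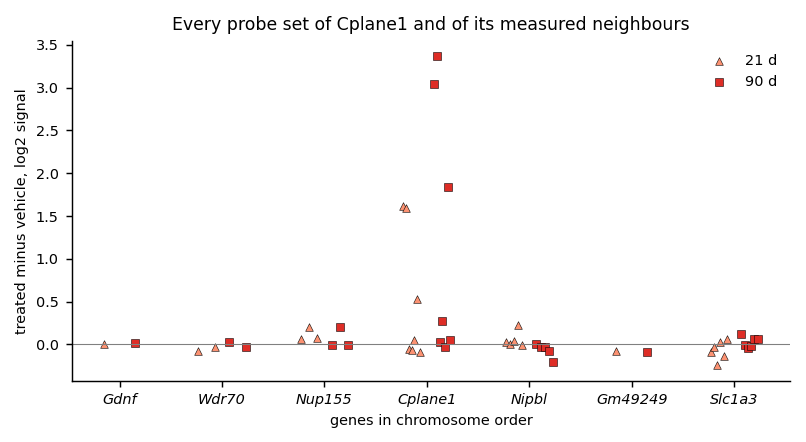
Treated minus vehicle difference in log2 signal of every probe set of Cplane1 and of its 3 measured neighbours on each side, in chromosome order and not to scale of distance, at 21 d (triangles) and 90 d (squares). The 18 neighbouring probe sets lie between -0.24 and 0.23, while 3 Cplane1 probe sets reach 3.04, 3.37 and 1.84 at 90 d.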

How the data were processed

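Liver RNA of 23 mice was measured on Affymetrix mouse whole-genome expression arrays, 1 array per animal. The deposited values are log2 signals that the authors made with RMA in Partek, per the submitters' processing notes, with no version given. That the base is 2 was inferred from the range, 2.23 to 15.41. Probe sets took their gene from the platform annotation (34945 of 45037 with 1 gene, 932 with several and 9160 unnamed). Controls (64 probe sets) were left out.

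Group means were fitted with limma 3.58.1 in R 4.3.3 over 23 arrays (lmFit and eBayes, 19 residual degrees of freedom), with Benjamini-Hochberg adjustment over 45037 probe sets and a threshold of 0.05. Folds are 2 to the power of a log2 difference. A gene of a list is read by its probe set with the highest mean. Relations over livers used values centred on group means and 2-sided exact permutation within groups. Genes named were all Cplane1 probe sets, Cdkn1a, Phlda3, 3 measured neighbours on each side, per cilium list those that passed or else the largest difference, and the 8 highest, 4 lowest and 5 highest centred correlations. Members and lists were chosen with earlier results of these data known. The fit was tested on simulated data. The number of arrays limits precision. The alternatives were a replicate block, a Gapdh covariate, arrays left out, a second quantile normalization, median centring, a filter on dim probe sets, the mean of a gene's probe sets, and other probe sets. Replicate numbers come from titles, and the main fit did not use them to pair livers.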

Additional observations from a re-analysis of the deposited data

Results flagged for a closer look

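In 8 of 68 groups of 4 to 10 arrays, 1 array lay apart from the rest by Dixon's test, where chance gives about 1 in 20 groups, or 3.4. Among Cplane1 probe sets these were 1441571_at in vehicle 90 d replicate 1 (4.37, others 4.51 to 4.54), 1444220_at in vehicle 21 d replicate 5 (3.50, others 3.80 to 3.90) and 1443691_at in treated 90 d replicate 1 (4.30, others 3.80 to 3.94). All 3 are dim probe sets in those groups. Cdkn1a was high in vehicle 90 d replicate 3 (7.27, others 6.41 to 6.72), below every treated liver. Among the neighbours, Wdr70 was high in vehicle 90 d replicate 4 (8.95, others 8.73 to 8.81), Nipbl low in treated 90 d replicate 1 (7.75, others 8.04 to 8.13) and Slc1a3 high in treated 90 d replicate 5 (6.50, others 5.96 to 6.16). Tmem216 was low in vehicle 90 d replicate 1 (7.97, others 8.20 to 8.26).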

How the results depend on the processing

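The treated minus vehicle difference of Cplane1 at 1452951_at moved by less than 1 SD in all 17 alternatives at 21 d and all 19 at 90 d. Leaving out 1 array gave 1.45 to 1.74 and 2.93 to 3.23. Without treated 90 d replicates 3 and 6 the 90 d difference was 3.51. At 21 d, 4 values of other Cplane1 probe sets given in the report moved, and 1441571_at gave -0.03 without the arrays above the Gapdh limit. That setting keeps only treated replicate 2 at 21 d, a lone sample taken to have the spread of other arrays, so its 21 d values and counts bear little weight. The vehicle comparison and the neighbours had 0 calls in all alternatives. The cilium count at 21 d, 2 genes, was 0 with the replicate block, with the Gapdh covariate, without the arrays above the Gapdh limit and with the compared groups alone, and 1 (Ift27) with the mean of all probe sets. Leaving out 1 array gave 0 to 4 genes, with 4 (Wdpcp and Dvl1 added) without treated replicate 2. Without that replicate, all treated 21 d livers left are above the Gapdh limit, while no vehicle 21 d liver is. The count was 0 without treated replicate 1, 3 or 5 or vehicle replicate 2, 3 or 6, and 1 without treated replicate 4 or vehicle replicate 4 or 5. At 90 d the count was 0 with any 1 array left out, 1 (Bbs7, 0.40) without the arrays above the Gapdh limit and 1 (Ift27, 0.21) with the mean of all probe sets. With the replicate block Tmem216 gave -0.55 (limma, adjusted p = 0.0600) and Ift27 0.33 (adjusted p = 0.0634). After each group's mean was subtracted, same-numbered treated and vehicle livers of one time correlated at -0.36 to -0.14 over all probe sets. Treated and vehicle livers with different numbers were not compared, so whether the numbers pair livers was not tested.

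With 1 treated liver left out, r lay between 0.72 and 0.91 for Cdkn1a and between 0.77 and 0.93 for Phlda3. Both calls ended without treated 90 d replicate 3 (0.72 and 0.77, adjusted p = 0.0596, exact permutation) or replicate 6 (0.74 and 0.77, adjusted p = 0.0543). They also ended without the 2 livers farthest from the median before centring (0.76 and 0.79) and without replicates 3 and 6 (0.27 and 0.36). With another probe set, r for Cdkn1a was 0.10 (1437439_at), -0.024 (1458493_a_at), 3.29e-05 (1441571_at), 0.74 (1444220_at) and 0.24 (1443691_at). For Phlda3 it was 0.25, 0.19, 0.042 and 0.42 with 1437439_at, 1458493_a_at, 1441571_at and 1443691_at. The cause of these changes was not tested. An uncentred r over both treated groups, a listed alternative, was not run because the groups stand apart.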
